A study of Mus musculus with 20 samples.

Results

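Gene expression in the amygdala of NCoR1-KO mice was compared with that of control mice at postnatal day 21. The comparison uses 7 of the 20 libraries of the study, NCoR1-KO 1 to 3 and control 1 to 4, taken from the amygdala by the genotype each library's title gives. The study sequenced poly(A)-selected RNA from bulk amygdala and hippocampus of control, NCoR1-KO and SMRT-KO mice, with 10 libraries per tissue. NCoR1-KO mice joined floxed alleles of Ncor1 with Snap25-IRES2-cre, a Cre driver inserted at the Snap25 locus and active in neurons generally, and SMRT-KO mice joined the same driver with floxed SMRT alleles. The labels do not say whether control mice carried Cre or floxed alleles, so Cre and the loss of NCoR1 cannot be told apart in this comparison. Glia and blood vessel cells lie outside the driver's target cells and stay in the tissue sampled. Whether each library is a different animal is not in the labels. The p-values weigh each difference against the spread among these libraries, which may be technical only.

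NCoR1 is a corepressor. It binds nuclear receptors that carry no ligand, such as the receptors for thyroid hormone and retinoic acid, and Rev-erb receptors of the circadian clock. It then recruits the histone deacetylase HDAC3 with TBL1X, TBL1XR1 and GPS2, and the complex removes acetyl groups from histones so that target genes are held at low transcription. Loss of a corepressor is therefore often examined for genes that rise, while genes that fall are also seen.

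Expression was given as TPM, a unit of transcript abundance corrected for transcript length and library total. Differences below are NCoR1-KO minus control on the log2(TPM + 1) scale, with the standard error (SE) of limma's linear model, and understate the change of genes at low levels. A gene was tested where at least 3 of the 10 amygdala libraries reached 1 TPM, and called where limma's Benjamini-Hochberg adjusted p over all tested genes was under 0.05. Between 14153 and 14509 genes reached 1 TPM per amygdala library. On the first principal component of the 10 libraries control 2 lay at 24.3, beside NCoR1-KO 2 and 3 at 23.8 and 22.0, while the other controls lay between -6.20 and -2.43 and NCoR1-KO 1 at 6.30. Of 24 markers of amygdala nuclei, 23 passed the filter, and their summed level was 1287 to 1667 TPM in controls and 1367 to 1549 TPM in NCoR1-KO. Npffr2, the marker that did not pass, lay under 1 TPM.

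The targeted gene, Ncor1 (ENSMUSG00000018501, minus strand of chromosome 11, 62316426 to 62458541 on GRCm38), was at 71.3, 117, 119 and 127 TPM in controls 1 to 4. It was at 32.1, 34.6 and 39.0 TPM in NCoR1-KO 1 to 3, so every knockout library lay below every control, and control 1 was the lowest control. Ncor1 fell to 32.5% of control, by 1.57 ± 0.16 (SE) on the log2 scale (limma adjusted p = 0.00732). A two-sided exact permutation test gave p = 0.0286, the smallest that 35 arrangements of 3 against 4 libraries allow. In bulk tissue, fewer cells of a type and less RNA per cell cannot be told apart, and the transcript that remained has no cell of origin in these values. The partners of the complex did not pass. Hdac3, the deacetylase, differed by 0.02 ± 0.05, and the WD40 subunits Tbl1x and Tbl1xr1 by 0.02 ± 0.07 and -0.01 ± 0.06. Gps2, a further subunit, differed by -0.15 ± 0.10, Coro2a, an actin-binding partner, by 0.00 ± 0.07, Zbtb33, which encodes the methyl-DNA binding protein Kaiso, by -0.04 ± 0.09, and the histone demethylase Kdm4a by -0.06 ± 0.05. For each of these 7 genes the NCoR1-KO libraries overlapped the controls.

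Snap25, the SNARE protein of synaptic vesicle fusion whose locus holds the Cre driver, shared the smallest adjusted p with Ncor1 and Kcnma1. It was at 1927, 2154, 1825 and 2228 TPM in controls 1 to 4 and at 1201, 1123 and 1228 TPM in NCoR1-KO 1 to 3, with no overlap. Snap25 fell by 0.78 ± 0.08 (limma adjusted p = 0.00732, exact permutation p = 0.0286). SMRT-KO libraries, which carry the same driver, were at 1053, 1207 and 1114 TPM, and the 2 knockouts differed by 0.08 (limma adjusted p = 0.568). Among 15 pan-neuronal markers Snap25 was the gene that was called, and Rbfox3, which encodes the neuronal antigen NeuN, differed by 0.03 ± 0.06. The summed level of the pan-neuronal markers, with Snap25 included, was 8380 to 9348 TPM in controls and 8061 to 8586 TPM in NCoR1-KO. Of the 15 markers 11 lay above control, with a median difference of 0.08.

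Of 14606 tested genes, 60 were called, which is 0.411% of those tested. Decreases made up 58 of them (0.397%) and increases 2 (0.0137%). At an unadjusted p under 0.05 there were 1433 lower and 482 higher genes of the 14606. Counts within gene lists are to be read against these shares of all tested genes. Called decreases ran from -2.12 to -0.28 with a median of -0.79, against a median of -0.03 over all tested genes. The levels of the called decreases were 17.2% to 82.3% of control. In all 60 called genes the 3 knockout libraries lay apart from the 4 controls, while over all tested genes this held for 8.43% in the lower direction and 3.68% in the higher. The genes were called from these same libraries, so the lack of overlap is a description and adds no support. Of the called genes, 6 have predicted or clone names and are not named.

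**Figure D1:**
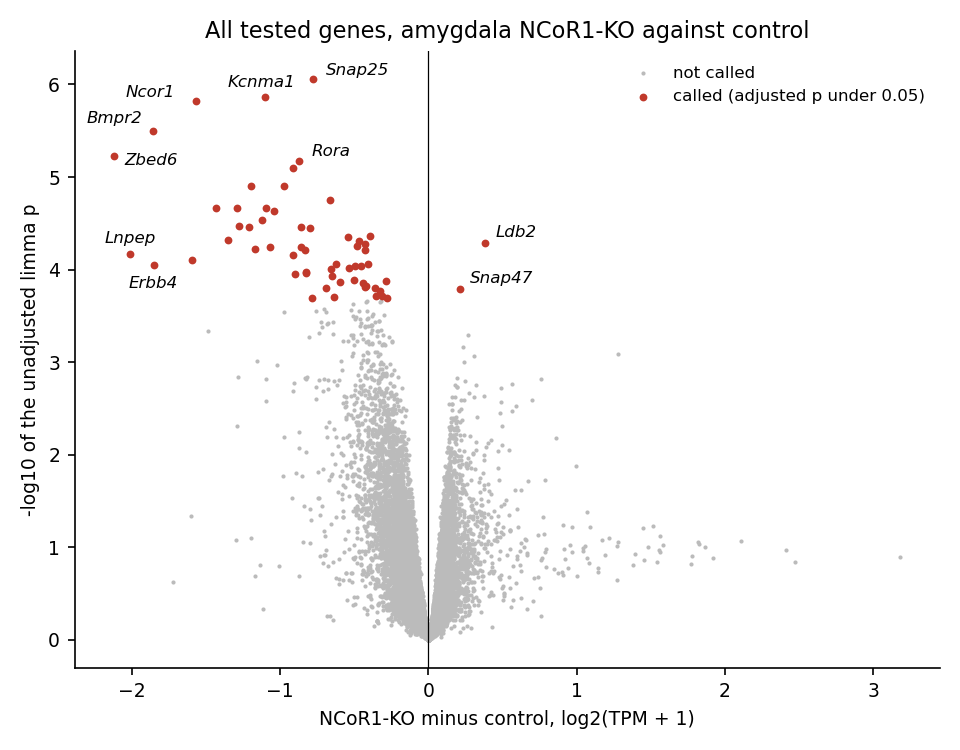
Each point is 1 of 14606 tested genes, with the NCoR1-KO minus control difference on the x axis (log2(TPM + 1)) and the size of limma's evidence on the y axis (-log10 of the unadjusted p); red points are the 60 called genes. The 58 red points on the left reach a difference of -2.12 at Zbed6, and the 2 on the right are Ldb2 and Snap47.

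The count rested on single libraries. Without NCoR1-KO 2 no gene was called by limma (smallest adjusted p = 0.0541, 1662 genes at an unadjusted p under 0.05). Without control 1 there were 3 calls, Ncor1, Snap25 and Kcnma1, and without NCoR1-KO 1 there were 7. Without control 3 or NCoR1-KO 3 there were 14 and 17 calls, and without control 2 there were 126, of which 110 were lower. The 3 SMRT-KO libraries help to set the spread, and without SMRT-KO 1, 2 or 3 there were 26, 24 and 10 calls. All 60 genes kept their sign in these fits, which was fixed in advance because their groups do not overlap, and adds no support. With control and NCoR1-KO libraries alone 4 genes were called, Ncor1, Snap25, Kcnma1 and, higher, Cyp26b1. Ncor1, Snap25 and Kcnma1 were called in 24 of 25 alternative fits, Bmpr2 in 22, Zbed6 in 21, Rora in 20, Erbb4 and Grin2a in 12, Ldb2 in 15 and Snap47 in 7.

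Receptors for growth factors were among the deepest decreases. Bmpr2 (ENSMUSG00000067336, plus strand of chromosome 1, 59763400 to 59879014 on GRCm38), the type II receptor for bone morphogenetic proteins, was at 49.1, 46.8, 68.8 and 32.4 TPM in controls 1 to 4. It was at 9.32, 13.9 and 14.6 TPM in NCoR1-KO 1 to 3, well apart from the lowest control. Bmpr2 fell to 25.6% of control, by 1.86 ± 0.21 (limma adjusted p = 0.0116). Erbb4 (ENSMUSG00000062209, minus strand of chromosome 1, 68032186 to 69108059), the neuregulin receptor of many cortical and amygdalar interneurons, was at 15.6, 15.7, 26.2 and 7.09 TPM in controls and at 2.78, 3.73 and 3.62 TPM in NCoR1-KO. Erbb4 fell to 20.9% of control, by 1.85 ± 0.30 (limma adjusted p = 0.0344), with no overlap. Of 18 GABA neuron and interneuron markers, 10 lay above and 8 below control, and Erbb4 was the marker called. Gad1, the GABA-synthesizing enzyme, differed by 0.07 ± 0.09, and Slc32a1, the vesicular GABA transporter, by 0.25 ± 0.16. Of 30 axon guidance and growth factor signalling genes, Bmpr2 was the gene called, and the list's median was -0.02. Over all tested genes 0.411% were called. Nrg1, a ligand of Erbb4, differed by -0.38 ± 0.11 and did not pass (limma adjusted p = 0.174).

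Among glutamate receptors the called decreases were in NMDA receptor subunits. Grin2a (ENSMUSG00000059003, minus strand of chromosome 16, 9567898 to 9995560) and Grin2b encode the GluN2A and GluN2B subunits, which set the kinetics of the receptor. Grin2a was at 22.9, 23.7, 32.2 and 11.3 TPM in controls 1 to 4 and at 5.60, 6.30 and 7.24 TPM in NCoR1-KO 1 to 3. It fell to 28.3% of control, by 1.59 ± 0.26 (limma adjusted p = 0.0341), and no knockout library reached the lowest control. Grin2b was at 60.0, 59.9, 77.9 and 42.2 TPM in controls and at 24.4, 24.1 and 28.1 TPM in NCoR1-KO. It fell to 42.6% of control, by 1.17 ± 0.18 (limma adjusted p = 0.0291). Grin1, the obligatory subunit of the same receptor, lay above control by 0.19 ± 0.05 without passing (limma adjusted p = 0.113), at 351 to 390 TPM in controls and 412 to 438 TPM in NCoR1-KO. In all, 2 of 22 glutamate receptor genes were called, both lower, where 0.397% of all tested genes were called lower. Of the 22, 9 lay above control, and at an unadjusted p under 0.05 there were 4 lower and 3 higher. The AMPA receptor subunits Gria1 and Gria2 differed by 0.03 and -0.10. None of 20 GABA and glycine receptor genes was called by limma, and 1, Gabrg3, had an unadjusted p under 0.05 (-0.57 ± 0.18).

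Kcnma1, the pore subunit of the large-conductance calcium-activated potassium channel, shared the smallest adjusted p with Ncor1 and Snap25. It lies on the minus strand of chromosome 14, 23289431 to 24014491 (ENSMUSG00000063142). Its level was 66.9, 72.4, 90.1 and 61.8 TPM in controls 1 to 4 and 29.1, 33.5 and 37.0 TPM in NCoR1-KO 1 to 3, without overlap. Kcnma1 fell by 1.10 ± 0.11 (limma adjusted p = 0.00732). Kcnq3, a subunit of the M-current channel, was at 39.8 to 57.0 TPM in controls and 20.4 to 25.4 TPM in NCoR1-KO and fell by 0.98 ± 0.13 (limma adjusted p = 0.0203). Kcng3, a modifying subunit of Kv2 channels, was low throughout, at 2.13 to 4.25 TPM in controls and 0.38 to 0.75 TPM in NCoR1-KO, and fell to 17.2% of control (limma adjusted p = 0.0242). Of 30 potassium channel genes on the list, which does not hold Kcng3, 2 were called, where 0.411% of all tested genes were. The list's median was -0.01. Kcnh7, an ERG-type channel, lay below control by 0.97 ± 0.29 without passing (limma adjusted p = 0.183). None of 29 sodium and calcium channel genes was called by limma. At an unadjusted p under 0.05, 5 were lower, among them Cacna1e, the R-type calcium channel, at -0.61 ± 0.14.

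**Figure D2:**
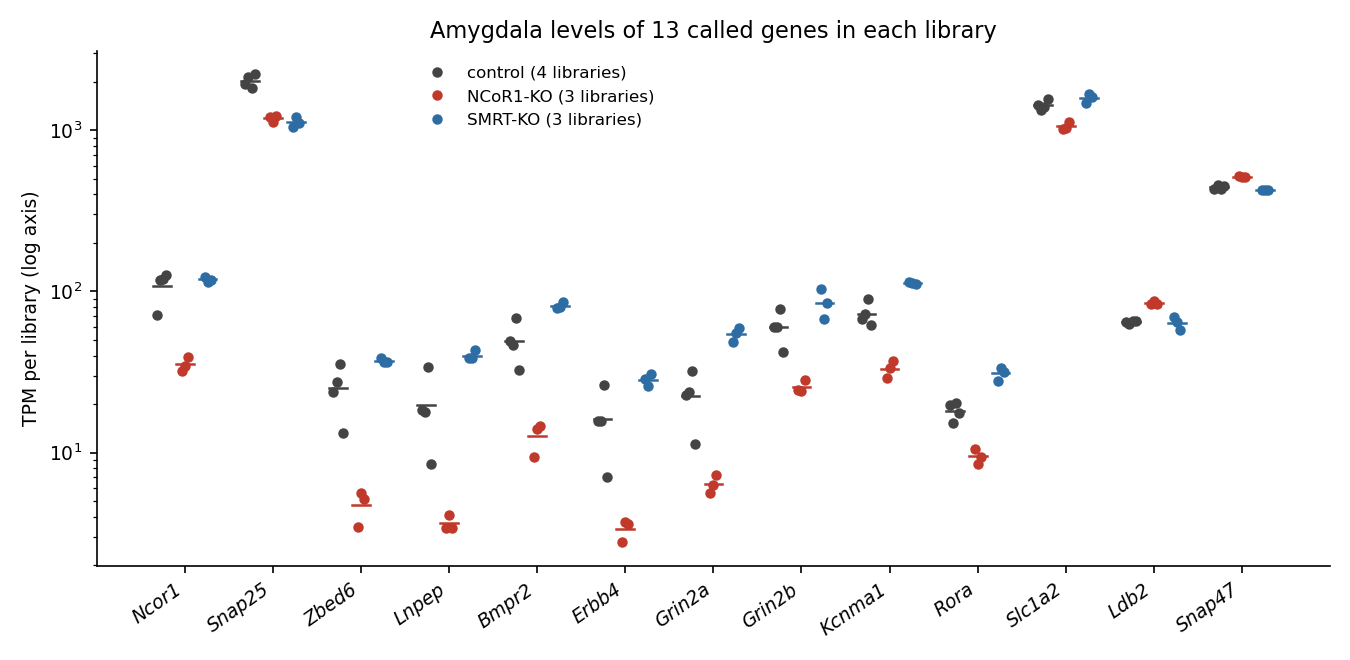
TPM per library on a log axis for 13 called genes in the 4 control, 3 NCoR1-KO and 3 SMRT-KO amygdala libraries; each point is a library and each bar a group mean. For the 11 genes that fell, every NCoR1-KO point lies under every control point, and Ldb2 and Snap47 show the reverse.

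Single genes of transcription and chromatin were among the decreases. Rora, an orphan nuclear receptor of the clock and of neuronal differentiation, was at 19.6, 15.3, 20.3 and 17.6 TPM in controls 1 to 4 and at 10.5, 8.51 and 9.34 TPM in NCoR1-KO 1 to 3. It fell to 51.9% of control, by 0.87 ± 0.11 (limma adjusted p = 0.0162), and no library overlapped. Rora was the 1 nuclear receptor called of 34, of which 13 lay above and 21 below control. The thyroid hormone receptors Thra and Thrb differed by -0.08 ± 0.07 and 0.05 ± 0.12. Of 24 other corepressors and histone deacetylases, 2 were called, where 0.411% of all tested genes were. Lcor, a ligand-dependent nuclear receptor corepressor, was at 2.31 to 4.60 TPM in controls and 0.54 to 1.01 TPM in NCoR1-KO and fell by 1.21 ± 0.18 (limma adjusted p = 0.0274). Nsd1, a histone methyltransferase for lysine residues, fell by 0.43 ± 0.07 (limma adjusted p = 0.0438). Zbed6, a transcription factor derived from a transposon, had the largest called decrease on the log2(TPM + 1) scale, at 23.6, 27.5, 35.7 and 13.3 TPM in controls 1 to 4 and 3.46, 5.62 and 5.13 TPM in NCoR1-KO 1 to 3. It fell to 18.9% of control, by 2.12 ± 0.26 (limma adjusted p = 0.0162). Zbed6 lies on the minus strand of chromosome 1 (133655879 to 133660885) inside the span of Zc3h11a on the same strand, so its level is uncertain where reads could go to either gene.

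The other named decreases belong to several families. Lnpep, the membrane aminopeptidase that cleaves oxytocin, was at 18.3, 17.9, 34.2 and 8.49 TPM in controls 1 to 4 and at 3.40, 4.12 and 3.38 TPM in NCoR1-KO 1 to 3. It fell to 18.4% of control, by 2.02 ± 0.32 (limma adjusted p = 0.0308), without overlap. Dok6, an adaptor of the Ret receptor, fell to 38.8% of control, and Ptpn4, a tyrosine phosphatase, to 37.2%. Dgki, a diacylglycerol kinase, fell to 39.9% and Fam135b to 35.3%. Their adjusted p values by limma were from 0.0203 to 0.0291.

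The 52 gene-named decreases shared an order of the libraries. Control 3 was the highest of the controls in 40 of them and control 4 the lowest in 31, while NCoR1-KO 1 was the lowest of the knockouts in 47. Bmpr2, Erbb4, Grin2a, Grin2b, Zbed6 and Lnpep all followed that order in the controls. Lnpep, for example, differed from 34.2 to 8.49 TPM between controls 3 and 4.

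Increases passed for 2 genes. Ldb2 (ENSMUSG00000039706, minus strand of chromosome 5, 44472132 to 44799680), an adaptor of LIM-homeodomain transcription factors, was at 64.4, 62.4, 65.9 and 65.5 TPM in controls 1 to 4 and at 83.9, 86.8 and 83.0 TPM in NCoR1-KO 1 to 3. It rose to 131% of control, by 0.38 ± 0.06 (limma adjusted p = 0.0291), and both groups were narrow and apart. Snap47, a SNAP-25-like SNARE protein, was at 432, 454, 434 and 451 TPM in controls and at 519, 510 and 509 TPM in NCoR1-KO. It rose to 116% of control, by 0.21 ± 0.04 (limma adjusted p = 0.0441). Snap47 lies on chromosome 11 at 59407134 to 59451186, within 10 Mb of Ncor1. Apart from Ncor1, 259 genes of that stretch were tested, and Snap47 was the 1 called, where 0.411% of all tested genes were. Linked differences around the floxed allele were not tested. Further genes above control did not pass: Glt1d1, a glycosyltransferase-like gene (0.27 ± 0.05, limma adjusted p = 0.0682), Bscl2, which encodes the lipid droplet protein seipin (0.23 ± 0.05, limma adjusted p = 0.0763), and Arntl, the clock activator BMAL1 (0.30 ± 0.07, limma adjusted p = 0.0883). Flywch1, Grin1 and Insl5 followed, with adjusted p from 0.0969 to 0.113.

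Promoters are shown for Bmpr2 and Rora, which fell and hold no nuclear receptor half-site there, and for Slc1a2, which fell, and Snap47, which rose, both with a half-site. The windows run from 250 bases before to 50 after the start in RefSeq (GRCm38.p6), and capitals mark the nuclear receptor half-site AGGTCA, or TGACCT on the other strand. They lie at chr1:59764029-59764328 (plus strand, Bmpr2), chr9:68653536-68653835 (plus, Rora), chr2:102706188-102706487 (plus, Slc1a2) and chr11:59449985-59450284 (minus, Snap47). The Slc1a2 window is at an internal start, far inside the gene's GENCODE span of 102658659 to 102790784. Its half-site ends the window and so lies after that start. The Bmpr2 and Snap47 windows also lie inside the GENCODE spans of their genes.
Bmpr2: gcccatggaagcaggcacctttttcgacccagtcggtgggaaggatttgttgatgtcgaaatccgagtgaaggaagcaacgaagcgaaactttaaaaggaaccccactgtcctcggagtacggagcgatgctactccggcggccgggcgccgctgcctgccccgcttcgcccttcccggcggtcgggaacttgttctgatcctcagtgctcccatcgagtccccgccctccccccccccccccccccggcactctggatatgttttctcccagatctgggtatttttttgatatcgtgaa
Rora: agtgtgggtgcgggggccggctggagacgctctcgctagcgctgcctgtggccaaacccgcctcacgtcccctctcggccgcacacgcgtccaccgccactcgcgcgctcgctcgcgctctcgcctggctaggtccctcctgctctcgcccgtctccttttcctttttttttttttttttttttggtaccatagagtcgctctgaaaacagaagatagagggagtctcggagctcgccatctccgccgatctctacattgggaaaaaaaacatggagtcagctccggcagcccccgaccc
Slc1a2: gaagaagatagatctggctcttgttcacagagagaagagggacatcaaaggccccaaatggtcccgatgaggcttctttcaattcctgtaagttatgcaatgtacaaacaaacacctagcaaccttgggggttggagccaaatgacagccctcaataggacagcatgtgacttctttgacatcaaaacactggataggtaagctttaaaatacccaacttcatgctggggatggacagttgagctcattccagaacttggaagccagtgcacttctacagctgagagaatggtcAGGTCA
Snap47: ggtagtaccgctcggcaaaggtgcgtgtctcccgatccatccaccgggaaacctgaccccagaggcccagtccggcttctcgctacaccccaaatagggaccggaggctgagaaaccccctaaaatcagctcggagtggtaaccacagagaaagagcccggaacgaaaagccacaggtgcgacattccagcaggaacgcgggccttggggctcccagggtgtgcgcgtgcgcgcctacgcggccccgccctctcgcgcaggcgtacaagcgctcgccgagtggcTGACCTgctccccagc
Of the 52 gene-named decreases, 35 matched a promoter in the table, and 3 held the half-site on either strand, Atrx, Slc1a2 and Unc80 (8.57%). For Slc1a2 this is the match at the internal start. Among all tested genes that matched, 1591 of 10740 held it (14.8%), and among windows of this length 12.4% did. A match is a description of letters and does not show binding.

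Pathways of NCoR1-bound receptors are given by their values, since lists of this size hold few or no calls at the 0.411% of all tested genes. Of 21 thyroid hormone transport and response genes none was called by limma, 5 had an unadjusted p under 0.05 (1 above, 4 below), and the median was -0.04. Camk4, a kinase gene responsive to thyroid hormone, lay below control by 0.36 ± 0.08 (limma adjusted p = 0.0846), and Dio2, the enzyme that activates thyroid hormone, by 0.28 ± 0.12. None of 12 retinoic acid pathway genes was called by limma, and 2 had an unadjusted p under 0.05. Among those, Cyp26b1, the enzyme that degrades retinoic acid, was at 23.9, 26.8, 25.8 and 23.3 TPM in controls 1 to 4 and at 36.6, 40.0 and 40.4 TPM in NCoR1-KO 1 to 3. It lay above control by 0.63 ± 0.24 without passing (limma adjusted p = 0.296), and its SMRT-KO libraries ranged from 9.44 to 25.4 TPM. None of 20 LXR and PPAR targets and none of 21 cholesterol synthesis genes was called by limma, with 3 and 1 at an unadjusted p under 0.05. Of the cholesterol synthesis genes 18 lay below control, with a median of -0.07.

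Circadian clock genes lay mostly above control. Of 16 tested, 13 lay above, and 4 had every NCoR1-KO library above every control, Arntl, Nr1d1, Nfil3 and Cry2, where 3.68% of all tested genes did. None was called by limma, and 6 had an unadjusted p under 0.05. Nr1d1, which encodes Rev-erb alpha, a repressor that acts through NCoR1, was at 90.8, 87.8, 81.2 and 77.1 TPM in controls 1 to 4 and at 124, 113 and 94.1 TPM in NCoR1-KO 1 to 3 (0.38 ± 0.10, limma adjusted p = 0.129). Arntl, a target of Rev-erb receptors, was at 27.8, 28.9, 25.2 and 27.6 TPM in controls and at 32.3, 35.4 and 34.4 TPM in NCoR1-KO. Nfil3 lay above control by 0.55 ± 0.17, while Clock, the partner of BMAL1, lay below by 0.37 ± 0.08, each without overlap and without passing. The list score, the mean deviation of its genes from their mean over the 10 amygdala libraries, was -0.11 to 0.01 in controls and 0.06 to 0.13 in NCoR1-KO. The hour at which tissue was taken is not in the labels, and its part in these values was not tested.

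Genes induced by activity and stress also lay above control, with controls that differed widely among themselves. Of 19 immediate early genes 18 lay above control, with a median of 0.33, and of 17 heat shock and acute stress genes 16, with a median of 0.16. None in either list was called by limma, and 0 and 4 had an unadjusted p under 0.05. Fos was at 48.3, 58.5, 25.8 and 24.3 TPM in controls 1 to 4 and at 57.0, 41.7 and 73.4 TPM in NCoR1-KO 1 to 3, so the groups overlapped. Hspa8, the constitutive Hsc70 chaperone, was at 2226 to 2855 TPM in controls and 2863 to 2965 TPM in NCoR1-KO (0.21 ± 0.08, limma adjusted p = 0.266). Control 2 had heat shock and immediate early scores of 0.31 and 0.35, in the range of or above NCoR1-KO. Without control 2 the medians were 0.54 for immediate early and 0.33 for heat shock genes, and over the fits that left out single libraries they ran from 0.22 to 0.54 and from 0.08 to 0.33.

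Markers of glia and vessels lay below control. Of 15 astrocyte genes 14 lay below, with a median of -0.20 that ran from -0.23 without control 2 to -0.10 without control 1. Slc1a2, the main glial glutamate transporter, was at 1435, 1330, 1388 and 1566 TPM in controls 1 to 4 and at 1023, 1034 and 1119 TPM in NCoR1-KO 1 to 3. It fell by 0.43 ± 0.07 (limma adjusted p = 0.0291), and with the trend on transcript length and GC removed the difference was -0.22 and was not called (limma adjusted p = 0.394). Slc4a4, a bicarbonate transporter, and Slc1a3, the other astrocyte glutamate transporter, lay below by 0.38 ± 0.08 and 0.24 ± 0.05 without overlap and without passing. In all, 5 of the 15 had every NCoR1-KO library below every control, where 8.43% of tested genes did. The summed level of the astrocyte markers was 6544 to 7257 TPM in controls and 5849 to 6123 TPM in NCoR1-KO.

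All 15 microglia genes lay below control, with a median of -0.27. For 5 of them every NCoR1-KO library lay below every control, where 8.43% of all tested genes did. None of the 15 was called by limma, and 12 were lower at an unadjusted p under 0.05, where 1433 of 14606 tested genes were. Cx3cr1, the fractalkine receptor, was at 63.3, 49.2, 57.2 and 58.9 TPM in controls 1 to 4 and at 46.6, 43.9 and 45.1 TPM in NCoR1-KO 1 to 3 (-0.33 ± 0.07, limma adjusted p = 0.0979). P2ry12, the ADP receptor of resting microglia, lay below by 0.43 ± 0.11. The microglia score was -0.20 in control 2 and 0.13 to 0.17 in the other controls, against -0.30 to -0.17 in NCoR1-KO. Of 20 oligodendrocyte lineage and myelin genes all 20 lay below control, with a median of -0.23 that ran from -0.48 without control 2 to -0.02 without control 1. Their scores overlapped, at 0.52, -0.82, 0.17 and -0.34 in controls 1 to 4 and -0.46 to -0.17 in NCoR1-KO, and the list's summed level was 2959 to 9949 TPM in controls. Pdgfra, the receptor of oligodendrocyte precursors, lay below by 0.34 ± 0.07 without overlap (limma adjusted p = 0.0883), and none of the list was called by limma, with 1 at an unadjusted p under 0.05. Endothelial genes lay below control in 12 of 13, mural cell, fibroblast and meningeal genes in 15 of 15, and interferon response and antigen presentation genes in 15 of 15, with medians of -0.16, -0.17 and -0.35. Without control 2 these medians were -0.27, -0.30 and -0.45, and the values nearest 0 were -0.09 without NCoR1-KO 2 and -0.12 and -0.25 without control 1. None of these was called by limma, with 3, 2 and 2 at an unadjusted p under 0.05. Over all tested genes 8513 of 14606 lay below control.

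**Figure D3:**
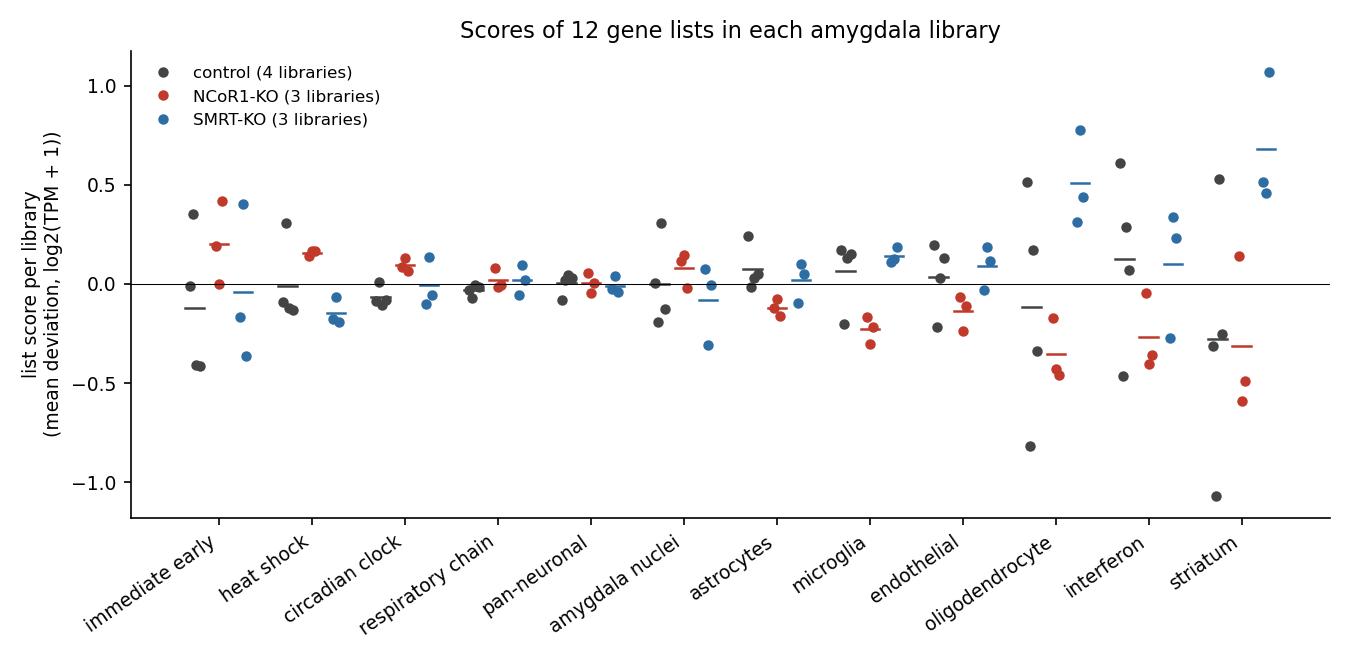
Scores of 12 gene lists in each amygdala library, as the mean over a list of each gene's deviation from its mean over the 10 libraries (log2(TPM + 1)); points are libraries and bars group means. Clock and astrocyte scores of NCoR1-KO lie apart from those of control. The score of control 2 lies within the NCoR1-KO range for immediate early, pan-neuronal, microglia and endothelial genes. It lies past that range, away from the other controls, for heat shock, oligodendrocyte, interferon and striatum genes.

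Neuronal and respiratory lists are given next. Of 26 synaptic vesicle and release genes 19 lay above control, with a median of 0.10. Snap25 fell and Snap47 rose, and 8 were above at an unadjusted p under 0.05, among them Sv2a (0.16 ± 0.04) and Rab3a (0.15 ± 0.04), both vesicle proteins. Of 22 postsynaptic scaffold and adhesion genes 11 lay on each side, and none was called by limma, with 2 at an unadjusted p under 0.05. Of 22 nuclear respiratory chain subunits 19 lay above, with a median of 0.04. For 5 of them every NCoR1-KO library lay above every control, where 3.68% of all tested genes did. Sdha, the flavoprotein of complex II, was at 331 to 339 TPM in controls and 347 to 370 TPM in NCoR1-KO. None of the 22 was called by limma, with 4 at an unadjusted p under 0.05. Excitatory neuron markers had a median of 0.05, and Slc17a7, the vesicular glutamate transporter, differed by 0.08 ± 0.13. Medians near 0 in the receptor, channel and scaffold lists changed sign under other scalings or without single libraries.

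SMRT-KO libraries share the 4 controls, so their values are set beside those of NCoR1-KO, and the knockouts were compared directly. That comparison called 1679 genes, 11.5% of those tested. The 58 decreases were chosen for low values in the same NCoR1-KO libraries, so the 57 of them called here are a description and support nothing. The exception was Snap25. Of the 58, 48 had a mean above control in SMRT-KO, and 24 had all 3 SMRT-KO libraries above all 4 controls. The same shares over all tested genes were not counted. Kcnma1 was at 115, 113 and 112 TPM in SMRT-KO 1 to 3, above every control, and NCoR1-KO lay below SMRT-KO by 1.74 (limma adjusted p = 0.000223). Grin2a was at 48.2, 55.2 and 59.0 TPM in SMRT-KO, and the knockouts differed by -2.90 (limma adjusted p = 0.00108). Bmpr2 was at 78.9 to 85.4 TPM and Erbb4 at 25.9 to 30.6 TPM there, and the knockouts differed by -2.62 and -2.75 (limma adjusted p = 0.00086 and 0.00213). Ncor1 was at 114 to 124 TPM in SMRT-KO. Ldb2 and Snap47 lay above SMRT-KO by 0.40 and 0.27 (limma adjusted p = 0.00701 and 0.00608). They were chosen for high values in the same NCoR1-KO libraries, so these values too are a description and support nothing. Against control, SMRT-KO called 16 genes, of which 2 are among the 60: Snap25, which fell there by 0.85, and Rora, which rose there by 0.74 (limma adjusted p = 0.0473).

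In hippocampus, which has its own 4 controls, the same genotype called no gene by limma (smallest adjusted p = 0.79), and 655 genes tested in both tissues had an unadjusted p under 0.05. Ncor1 differed by -1.22 ± 0.20 and Snap25 by -0.80 ± 0.12 there. Low levels of the other amygdala decreases were not particular to NCoR1-KO in hippocampus. Bmpr2 was at 66.7, 40.7, 10.8 and 36.7 TPM in hippocampus controls 1 to 4, at 5.91, 20.4 and 17.8 TPM in NCoR1-KO 1 to 3 and at 47.7, 7.24 and 3.67 TPM in SMRT-KO 1 to 3. Control 3 thus lay among the NCoR1-KO libraries, and SMRT-KO 2 and 3 lay below that control. Zbed6 was at 28.4, 21.1, 3.80 and 17.5 TPM in the controls, at 1.83, 7.55 and 7.08 TPM in NCoR1-KO and at 25.6, 2.76 and 1.06 TPM in SMRT-KO, with control 3, SMRT-KO 2 and SMRT-KO 3 again low.

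Over the 52 gene-named decreases, hippocampus control 3 was the lowest control for 46 and at or below the highest NCoR1-KO library for 48. SMRT-KO 2 and SMRT-KO 3 lay below the lowest control for 41 and 49 of them, and SMRT-KO 1 for 1. In 4 of the 52 genes all NCoR1-KO libraries lay below all hippocampus controls. The share of all hippocampus genes for which this held was not counted, so 4 cannot be read as few or many. The median deviation of these genes from their mean over the 10 hippocampus libraries was -0.17 in control 3 and 0.33 to 0.63 in the other controls. It was -0.52, 0.03 and -0.04 in NCoR1-KO 1 to 3 and 0.43, -0.43 and -0.62 in SMRT-KO 1 to 3. Of the 58 amygdala decreases 57 had a mean below control in hippocampus, with a median of -0.49 against 0.00 over all tested genes, and 5 had an unadjusted p under 0.05. Over the 52 gene-named decreases the median was -0.51, and -0.68 without control 3, a step chosen after seeing the data. The fitted differences were -1.25 ± 0.82 for Bmpr2, -0.66 ± 0.40 for Kcnma1 and -1.42 ± 0.88 for Zbed6. The exception was Acap2, at 0.05. Ldb2 differed by -0.29 ± 0.24 and Snap47 by 0.06 ± 0.08. The genes were chosen by their amygdala difference, so a smaller value in the other tissue is not a difference between tissues. The test of that difference called no gene of 14210 (0%) by limma, with 522 at an unadjusted p under 0.05.

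**Figure D4:**
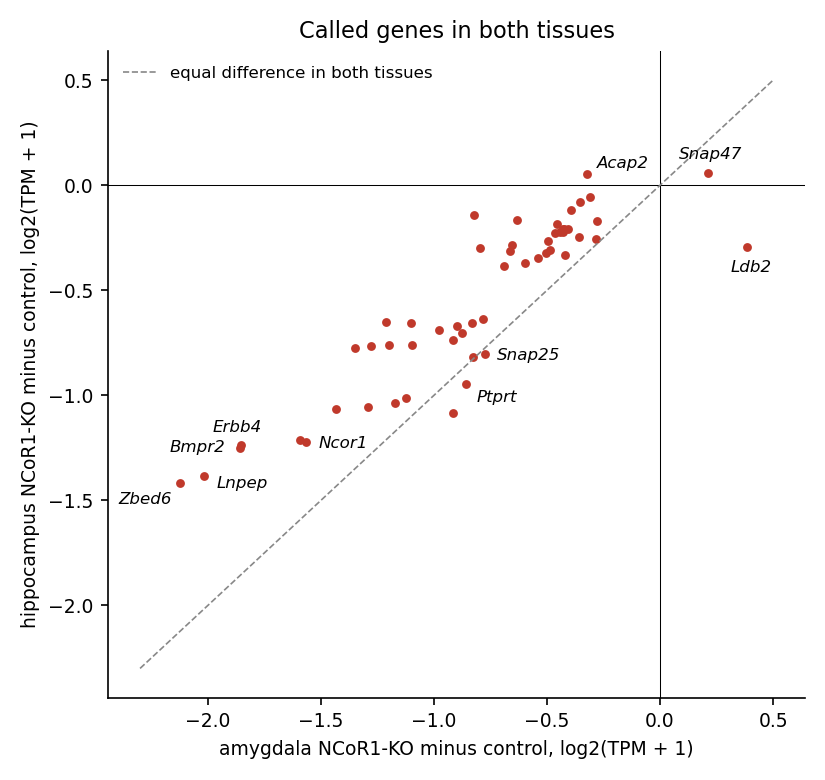
NCoR1-KO minus control in amygdala (x axis) and hippocampus (y axis), both on the log2(TPM + 1) scale, for the 54 called genes with gene names; the dashed line marks equal differences. Apart from Acap2 the decreases lie below 0 in both tissues, where hippocampus control 3 was itself low for most of them, and Ldb2 lies above 0 in amygdala and below 0 in hippocampus.

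The genes that fell had long transcripts. Among the 54 decreases with a coding transcript in GENCODE M21, the median length was 10411 nucleotides against 3199 over tested genes. The median 3' untranslated region was 5642 against 1177 nucleotides and the median coding length 3375 against 1383. Median GC content was 43.3% against 50.3%. Of these 54 genes, 46 lay in the longest of 5 length bins of equal size, transcripts of 5211 nucleotides or more, where the median difference of all genes was -0.10 against 0.01 in the shortest bin. In the longest bin 584 of 2789 genes had all NCoR1-KO libraries below all controls, against 79 of 2789 in the shortest, and 30 and 142 had them above.

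NCoR1-KO 1 carried most of that trend. The median deviation of the longest bin was -0.17 in NCoR1-KO 1 and -0.02 in both NCoR1-KO 2 and NCoR1-KO 3, against 0.01 to 0.08 in the controls. Over the decreases themselves the median deviation was -0.73, -0.48 and -0.48 in NCoR1-KO 1 to 3 and 0.00 to 0.34 in the controls. With the trend on transcript length and GC removed from each library, a step chosen after seeing the data, 19 genes were called, 17 lower and 2 higher, and 18 of them were among the 60. Ncor1, Snap25, Kcnma1, Bmpr2, Zbed6, Kcnq3, Mib1 and Ldb2 were among those still called. Of the 60 genes 38 were no longer called and 4 had no transcript features. Erbb4, Grin2a, Grin2b and Lnpep lay at -1.57, -1.33, -0.82 and -1.73 (limma adjusted p = 0.0578, 0.0598, 0.0578 and 0.0578). Rora lay at -0.62, Nsd1 at -0.21, Slc1a2 at -0.22 and Snap47 at 0.18 (limma adjusted p = 0.119, 0.25, 0.394 and 0.17). The part of RNA quality in this trend was not tested.

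**Figure D5:**
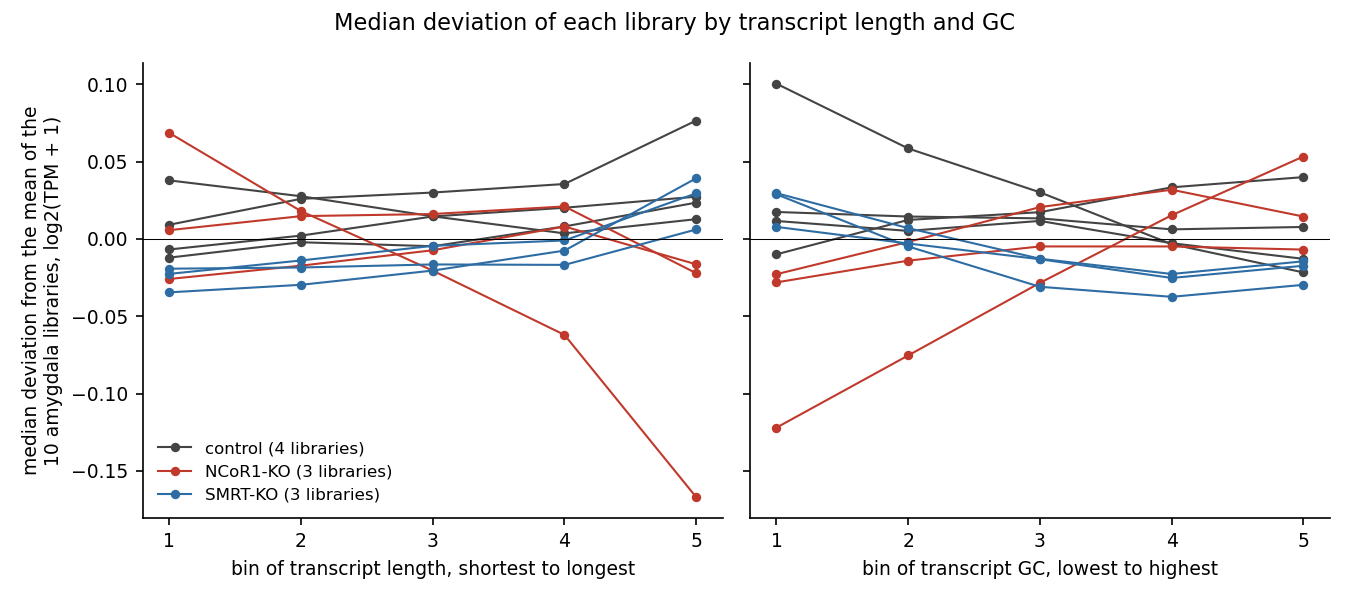
Median deviation of each amygdala library from the mean of the 10 libraries (log2(TPM + 1)) in 5 equal bins of tested genes by transcript length (left) and transcript GC (right), 1 line per library. NCoR1-KO 1 falls to -0.17 in the longest bin and control 3 rises to 0.08, while NCoR1-KO 2 and NCoR1-KO 3 lie at -0.02.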

How the data were processed

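The authors deposited gene-level TPM values for 10 amygdala and 10 hippocampus libraries, 1 table per tissue, with 23412 gene symbols. The build mm10 and the tools RSEM 1.3.3, STAR 2.5.3a, fastp 0.21.0 and bcl2fastq are named, with no role or order, per the submitters' processing notes, and per the labels' protocols the library kit was stranded mRNA. Which annotation they used is not stated in the sources at hand. Depth cannot be read from TPM, and counting intervals are therefore not given: the depth is unknown. 0 columns of other samples were present.

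Values were analysed as log2(TPM + 1), pseudocount 1, in R 4.3.3 with limma 3.58.1 (lmFit, eBayes with trend), 3 genotypes as groups over all 10 amygdala libraries, Benjamini-Hochberg adjustment and a threshold of 0.05. The NCoR1-KO difference between tissues was tested in a joint fit of 20 libraries. The fit was also run on simulated data. Their noise was independent between genes, without shared library differences like those above, so that run cannot speak for the calls here. Positions and transcript features are from GENCODE M21 (GRCm38, which mm10 names): 21735 symbols matched, 1274 matched an older symbol, 68 matched several genes and 335 none. Transcript features are those of the longest coding transcript.

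The comparison and the 37 gene lists (672 symbols, 653 tested) were chosen with earlier results of these data known. Named genes are Ncor1, Snap25, the 12 largest called differences per direction without overlap, genes of smallest unadjusted p up to 8 where fewer were called, up to 4 members of smallest p per list, and the corepressor complex in full. Predicted and Y-linked genes are not named. Other list members, Cry2, Gad1, Gria1, Gria2, Rbfox3, Thra, Thrb, Slc17a7, Fos, Mib1, Atrx, Unc80, Acap2 and the libraries singled out were named after their values were seen. Alternatives changed the pseudocount, filter, variance model, scaling and libraries.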

Additional observations from a re-analysis of the deposited data

Results flagged for a closer look

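Control libraries far from the other 3 of their group were looked for in 69 genes and 37 list scores in amygdala and in 3 genes in hippocampus, and chance flags about 1 in 20 groups of 4. None of the 3 hippocampus genes and 6 amygdala values met the mark. Ncor1 was at 71.3 TPM in control 1, while controls 2 to 4 were at 117 to 127 TPM. Ttr was at 1054 TPM in control 1, while controls 2 to 4 were at 14.7 to 64.4 TPM. Coro2a was at 29.1 TPM in control 4, while the other controls were at 25.2 to 25.6 TPM. Rbfox3 was at 256 TPM in control 3, while the other controls were at 275 to 278 TPM. The heat shock and acute stress score of control 2 was 0.31, while the other controls were between -0.13 and -0.09. The microglia score of control 2 was -0.20, while the other controls were between 0.13 and 0.17.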

How the results depend on the processing

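The 60 called genes kept their sign in every one of the 25 alternatives in which they were tested, while the number called moved. Their groups do not overlap, so a change of libraries, pseudocount, filter or variance model could not reverse the sign. The kept sign adds no support there. With a pseudocount of 5 there were 38 calls (37 lower, 1 higher), with no filter on low values 16 (13 lower, 3 higher), with control and NCoR1-KO libraries only 4 (3 lower, 1 higher) and without a variance trend 17 (17 lower, 0 higher). With the trend on transcript length and GC removed there were 19 calls (17 lower, 2 higher), and with the trend on 3' untranslated length and GC removed 40 (38 lower, 2 higher), both chosen after seeing the data. The cause was not tested. Over the fits that left out single libraries, calls ran from 0 (without NCoR1-KO 2) to 126 (without control 2), lower calls from 0 to 110 and higher calls from 0 to 16. Without SMRT-KO 1, 2 or 3 there were 26, 24 and 10. Ncor1 ran from -1.75 to -1.48 and Snap25 from -0.83 to -0.73, and without NCoR1-KO 2 they were -1.56 and -0.74 (limma adjusted p = 0.0541 for both). With the replicate block there were 41 calls, 41 lower and 0 higher, of which 33 were among the 60. The labels do not say that replicate numbers are pairs, and they were not taken as pairs. Deviations of same-numbered libraries correlated at 0.31, 0.34 and -0.17, and those of the other pairs at -0.53 to 0.32. For NCoR1-KO 1 and 2 the control of the same number gave the highest correlation, and for NCoR1-KO 3 control 2 did. Ldb2 and Snap47 had adjusted p = 0.0923 and 0.123 in the limma fit with the replicate block. Snap47 also missed the threshold with quantile normalization (limma adjusted p = 0.0559) and median-ratio scaling (0.0512). TPM keeps no depth, so limits for low genes such as Kcng3 are unknown.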

Other observations

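Markers of neighbouring regions varied more among the controls than between genotypes. Striatum scores ran from -1.07 in control 2 to 0.53 in the highest control and from -0.59 to 0.14 in NCoR1-KO, and 13 of 14 markers were tested with 5 above control. Hypothalamus and thalamus scores ran from -0.50 to 0.53 in controls and from -0.31 to 0.33 in NCoR1-KO, with Rora the marker called. Cortex layer and hippocampus markers had medians of -0.02 and 0.01 and no call by limma, with 0 and 1 at an unadjusted p under 0.05. Of 5 blood cell markers tested 3 lay below control, and none was called by limma, with 1 at an unadjusted p under 0.05. Choroid plexus epithelium markers summed to 136 to 1448 TPM in controls and 181 to 202 TPM in NCoR1-KO. Ttr, the transthyretin gene and main product of that epithelium, was at 1054 TPM in control 1 and at 14.7 to 64.4 TPM in controls 2 to 4 and 36.6 to 54.3 TPM in NCoR1-KO.

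Of 20 neuropeptide precursor genes 13 lay above control, with a median of 0.15, and none was called by limma, with 4 at an unadjusted p under 0.05. Vgf and Scg2, granin family members of dense-core vesicles, differed by 0.32 ± 0.10 and 0.37 ± 0.13, and Nppc, the C-type natriuretic peptide gene, by -0.48 ± 0.14. Of 24 cytosolic ribosomal protein genes 18 lay below control with a median of -0.03, and of 24 cadherin and protocadherin genes 14 did. Neither list had a call by limma, with 0 and 2 at an unadjusted p under 0.05.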
